A study of Mus musculus with 12 samples.

Results

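Immunoglobulin variable (V) genes encode most of the antigen-binding part of an antibody. They were taken as every gene of the count tables whose mouse symbol starts with Ighv, Igkv or Iglv, which gave 214 of 38924 genes. Of these, 108 were heavy chain genes (Ighv) at chr12:113574245-116000461, 103 were kappa light chain genes (Igkv) at chr6:67555497-70704177, and 3 were lambda light chain genes (Iglv) at chr16:19085017-19260859 (GRCm38). The annotation called 8 of them pseudogenes, which held no more than 0.0187% of V counts in any mouse. In Ighv and Igkv symbols the number before the dash gives the V family, a group of genes alike in sequence, and these members fell into 16 Ighv and 19 Igkv families, while the Iglv genes were taken singly.

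Each B cell joins a single heavy chain V segment to D and J segments, and a kappa or lambda V segment to a J segment, in a process called V(D)J recombination. The cell and its daughters then keep that choice, so transcripts of a V gene in a tissue come from the B cells and plasma cells that chose it. The lamina propria of the gut holds many plasma cells, which secrete dimeric IgA and carry large amounts of immunoglobulin mRNA. An expanded clone therefore adds its own heavy and light V genes to the RNA of the tissue, and V gene counts in bulk RNA sum over all such cells.

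Total RNA of the proximal colonic mucosa was sequenced from mice of 2 genotypes, APC Min/+ and WT with 6 of each, all female, of strain C57BL/6 and 6 weeks old, to ask how gene expression differs before polyps can be seen. APC Min/+ mice carry 1 germline copy of Apc with the multiple intestinal neoplasia truncation in every cell, and the WT mice were congenic and had no treatment. According to the study's methods the genotypes were housed in separate cages after arriving in several shipments, and the labels give no cage, shipment or sequencing batch, so genotype and cage cannot be told apart. Libraries held 50313805 to 197914821 counts on genes, and 3 counts corresponded to between 0.0152 and 0.0596 CPM, the count scaled to the library total.

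Several libraries stood apart. Hoxb13, a gene of the distal colon, was counted at 378 and 275 CPM in the APC Min/+ mice M10_2 and M13_1, while the other 10 mice reached 0.744 CPM at most, which goes against the proximal label of those libraries. M13_1 also had the highest summed level of 10 B cell genes, 69.9 CPM against 2.38 to 14.8 CPM elsewhere, with Cr2 of follicular B cells at 12.4 CPM. The APC Min/+ mouse M18_2b and the WT mouse M19_1 had nearly the same V gene usage, as described below. Of the epithelial genes, Epcam was between 1239 and 1624 CPM in every mouse, but the 6 genes of the list summed to 9463 CPM in M10_2 and 10562 CPM in M13_1, against 25935 CPM or more in the other 10 mice. Smooth muscle genes were counted too, with Acta2 at 897 CPM or more.

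The coding ends of 9 V genes are shown because these genes led the counts of their chain or turn the comparisons below. Each run is the last 120 bases of the V exon, 5′ to 3′ on the coding strand, from the GENCODE M21 transcripts on GRCm38, the build of the count tables. The capitals mark the last match to the adjoining codons TAN, TNN and TGN, which fit a tyrosine, a residue whose codon starts with T, and the conserved cysteine before the joining point of the V segment.
Ighv10-1: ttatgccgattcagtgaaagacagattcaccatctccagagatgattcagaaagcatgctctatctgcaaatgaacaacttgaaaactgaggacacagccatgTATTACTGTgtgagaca
Ighv1-53: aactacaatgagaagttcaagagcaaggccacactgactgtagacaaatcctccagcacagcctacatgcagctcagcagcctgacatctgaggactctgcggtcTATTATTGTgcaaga
Ighv1-76: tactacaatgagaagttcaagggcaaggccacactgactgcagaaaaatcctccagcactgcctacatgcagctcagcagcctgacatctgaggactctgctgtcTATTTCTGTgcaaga
Ighv6-3: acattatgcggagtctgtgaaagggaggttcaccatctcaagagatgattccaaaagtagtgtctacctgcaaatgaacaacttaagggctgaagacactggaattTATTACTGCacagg
Igkv1-110: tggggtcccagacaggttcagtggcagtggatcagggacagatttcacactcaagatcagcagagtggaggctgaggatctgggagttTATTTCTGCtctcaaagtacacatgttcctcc
Igkv1-117: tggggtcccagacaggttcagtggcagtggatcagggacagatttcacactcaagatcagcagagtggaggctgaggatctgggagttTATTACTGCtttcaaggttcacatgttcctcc
Igkv5-48: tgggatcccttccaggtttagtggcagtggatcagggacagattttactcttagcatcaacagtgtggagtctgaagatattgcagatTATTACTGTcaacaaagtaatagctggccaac
Iglv1: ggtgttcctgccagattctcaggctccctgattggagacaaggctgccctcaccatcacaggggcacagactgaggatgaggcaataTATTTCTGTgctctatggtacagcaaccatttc
Iglv2: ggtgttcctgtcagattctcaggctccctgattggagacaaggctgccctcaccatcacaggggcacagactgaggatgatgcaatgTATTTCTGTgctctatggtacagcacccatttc

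The heavy chain ends lie at chr12:114479005-114479124 for Ighv10-1, chr12:115158403-115158522 for Ighv1-53, chr12:115847881-115848000 for Ighv1-76 and chr12:114391712-114391831 for Ighv6-3, all on the minus strand. The kappa ends lie at chr6:68271148-68271267 (plus strand) for Igkv1-110, chr6:68121708-68121827 (plus strand) for Igkv1-117 and chr6:69726573-69726692 (minus strand) for Igkv5-48. The lambda ends lie at chr16:19085017-19085136 for Iglv1 and chr16:19260401-19260520 for Iglv2, on the minus strand. The motif, searched on the coding strand only, was found in the last 60 bases of 197 of the 206 V genes with a coding transcript (95.6%). Igkv1-110 and Igkv1-117 were alike at 116 of the 120 bases, and so were Iglv1 and Iglv2. Such likeness matters for the counts. Of 206 V transcripts, 81 shared at least 1 stretch (window) of 100 bases, the read length, with another V gene. Genes of this kind held 51.7% of the V counts, which is not the part of the counts open to doubt. The median V transcript shared 0% of its windows, and 4 shared most of theirs. Among the genes shown, 16.2% of the windows of Igkv1-110 and 16.07% of those of Igkv1-117 were shared, 1.71% of those of Iglv1, and none of those of Ighv10-1, Ighv1-76, Ighv6-3 or Igkv5-48. How the counting treated reads that match several genes is not given in the sources used here, and neither is its strand setting.

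V genes held a small and very uneven part of the libraries. V counts per mouse ranged from 10667 (M13_1) to 167138 (WT mouse M17_1). As a share of all counts they were at 0.0129%, 0.0248% and 0.127% (lowest, median and highest) in APC Min/+ mice and at 0.0330%, 0.0465% and 0.152% in WT mice. The groups overlapped, with the highest APC Min/+ value in M2_A above 5 of the 6 WT mice and every other APC Min/+ mouse at or below 0.0428%. The mean difference of -0.0283 percentage points was smaller than the pooled SD of 0.0457, and it was -0.0454 without M2_A, -0.0119 without M17_1, -0.0167 without M10_2 and M13_1, and -0.0359 without M18_2b and M19_1. In these bulk samples, fewer antibody-producing cells and less RNA per cell cannot be told apart.

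V counts followed the constant region of IgA. Igha, the constant region of the IgA heavy chain, was counted at 111, 264 and 1369 CPM (lowest, median and highest) in APC Min/+ mice and at 362, 577 and 1246 CPM in WT mice. The number of V counts per Igha count stayed between 0.720 and 1.24 over the 12 mice, and that of Igkv counts per count of Igkc, the kappa constant region, between 0.715 and 1.12, while V counts themselves spread from 10667 to 167138. The ratio to Igha was 0.954 ± 0.118 in APC Min/+ mice and 0.961 ± 0.1695 in WT mice (SD, n = 6), a difference within the spread of either group. Ighm, the IgM constant region, lay between 10.8 and 29.4 CPM. Igha made up most of the summed level of the 9 constant region genes found, Igkc included, in every mouse (1246 of 2305 CPM in M17_1). Among these genes IgA was thus the main heavy chain class counted in every mouse.

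**Figure D1:**
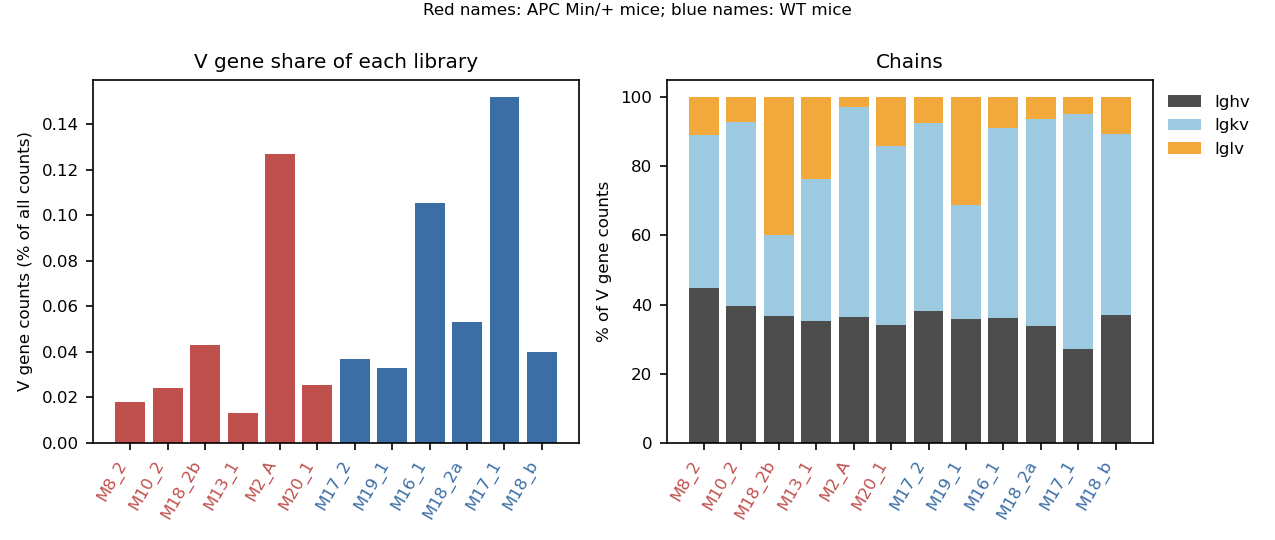
Left, counts on V genes as a percentage of all counts on genes for each mouse; right, the division of V counts among Ighv, Igkv and Iglv, with bars that sum to 100%. Red names are APC Min/+ mice and blue names WT mice; M2_A, M16_1 and M17_1 had the largest V shares, and M18_2b and M19_1 the largest lambda parts, 39.8% and 31.2%.

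The heavy chain took a steady part of V counts and the light chains did not. Ighv genes held 34.1%, 36.5% and 44.8% of V counts (lowest, median and highest) in APC Min/+ mice and 27.1%, 35.9% and 38.0% in WT mice. Igkv genes held 23.5%, 48.1% and 61.0% in APC Min/+ mice and 33.0%, 54.8% and 68.2% in WT mice. Iglv genes held 2.70%, 12.5% and 39.8% in APC Min/+ mice and 4.72%, 8.19% and 31.2% in WT mice, and the groups overlapped for every chain. The ratio of kappa to lambda counts thus ran from 0.590 in M18_2b and 1.05 in M19_1 to 22.6 in M2_A, with a median of 5.63. Iglv1 made up nearly all of the lambda counts, with 74.2% to 96.4% in each mouse. Iglv2 held 3.25% to 25.2%, highest in M16_1, and Iglv3 no more than 2.06%. The difference between the genotype means was smaller than the pooled SD for each chain, at 3.21 percentage points for Ighv (SD 3.93), -8.05 for Igkv (SD 12.4) and 4.84 for Iglv (SD 11.8). Without M18_2b and M19_1 these differences were 3.67, -7.77 and 4.1 percentage points, and without M10_2 and M13_1 they were 3.401, -8.74 and 5.34. Leaving out only M18_2b gave -3.58 for Igkv and 0.156 for Iglv, and leaving out only M19_1 gave -12.2 and 8.79.

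V families were used very unequally, and some of the smallest carried the most counts in single mice. The Ighv1 family, with 50 of the 108 heavy chain genes, held 49.3% of Ighv counts on average over the 12 mice, between 21.6% and 61.0%. The difference between its genotype means was -4.46 percentage points, and -9.43 without M10_2 and M13_1. The Ighv10 family has only 2 genes in the tables and held 57.3% of Ighv counts in M18_2b and 40.9% in M19_1, against 2.56% to 5.88% in the other 10 mice. Ighv6 held 32.2% in M8_2 and at most 10.6% elsewhere. Ighv5 held 1.30%, 8.47% and 24.5% (lowest, median and highest) in APC Min/+ mice and 1.84%, 2.97% and 4.78% in WT mice, so that 5 of the 6 APC Min/+ mice lay above every WT mouse, with M18_2b below all of them. The Ighv13 gene had no count in any mouse.

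Among kappa families Igkv1 had the largest mean share, 20.9% of Igkv counts, though Igkv4 exceeded it in 6 of the 12 mice. The 11 genes of Igkv1 held 13.8%, 26.4% and 34.6% of Igkv counts in APC Min/+ mice and 5.01%, 9.22% and 40.5% in WT mice, where M17_2 and M19_1 were high and the other 4 at or below 10.4%. Igkv4, the largest kappa family with 27 genes, held 17.3% on average, between 3.93% and 29.1%. Igkv9 held 1.09%, 2.52% and 5.85% in APC Min/+ mice and 0.355%, 7.10% and 22.3% in WT mice, and Igkv5 held 0.9096%, 5.27% and 11.4% against 3.804%, 10.24% and 20.14%. The groups overlapped in all 14 Ighv and Igkv families with a mean share of at least 5%. Mean differences passed the pooled SD in 3 of the 14, Ighv5 (6.54 percentage points, SD 5.70), Igkv5 (-5.32, SD 5.06) and Igkv9 (-5.97, SD 5.70), with no test made of them. Leaving out single mice, these 3 differences stayed between 3.58 and 8.22, -6.70 and -3.44, and -7.68 and -3.30 percentage points.

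The most counted heavy chain gene differed from mouse to mouse. Ighv1-53 led in M10_2 and M17_2 (12.5% and 14.8% of Ighv counts) and Ighv1-76 in M18_2a and M17_1 (21.2% and 14.1%). Ighv10-1 led in M18_2b and M19_1 (52.8% and 37.8%). Each of the other 6 mice had a leading gene of its own: Ighv6-3 in M8_2 (29.0%), Ighv1-5 in M13_1 (19.2%), Ighv7-3 in M2_A (14.0%), Ighv5-4 in M20_1 (22.1%), Ighv8-12 in M16_1 (10.5%) and Ighv1-80 in M18_b (18.7%). A leading gene in a given mouse could be almost missing in another. Ighv1-5 had no count in M18_2a and 0.0101 CPM in M10_2, against 10.22 CPM in M20_1, and Ighv5-4 was at 19.9 CPM in M20_1 and at no more than 2.25 CPM in the other 11 mice.

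Kappa usage was more often shared. Igkv1-110 led in 5 mice, with 12.5% of Igkv counts in M10_2, 18.03% in M18_2b, 19.9% in M13_1, 31.1% in M17_2 and 17.096% in M19_1, and it held at least 1.65% in every mouse. Igkv1-117 led in M8_2 (25.1%) and M20_1 (32.8%). It held 5.12%, 8.25% and 32.8% of Igkv counts (lowest, median and highest) in APC Min/+ mice and 1.09%, 2.82% and 5.49% in WT mice, so that the ranges overlapped only through M13_1 (5.12%) and the WT mouse M19_1 (5.49%). Its level was not higher throughout, from 2.48 to 67.0 CPM in APC Min/+ mice and from 2.52 to 53.4 CPM in WT mice. Igkv10-96 led in M16_1 (10.6%) and M18_2a (16.3%), Igkv12-41 in M2_A (14.0%), Igkv9-124 in M17_1 (6.58%) and Igkv9-120 in M18_b (21.1%).

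Several other kappa genes among the 10 with the largest mean share had large shares in a single mouse or a pair of mice. Such shares do not give levels: Igkv4-57-1 had 2281 raw counts in M20_1 and 5842 in M17_1. Igkv4-57-1 held 21.2% of Igkv counts in M20_1 and at most 5.497% in WT mice. Igkv6-15 held 17.05% in M8_2 and at most 4.27% in WT mice. Igkv17-121 held 7.12% in M18_2b, 12.2% in M19_1 and a median of 1.32% in WT mice. Igkv5-43 lay between 0.362% and 6.42%. Of the heavy chain genes, Ighv1-64 reached 11.03% in M17_2, Ighv9-3 7.55% in M17_2 and Ighv1-22 6.43% in M10_2.

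**Figure D2:**
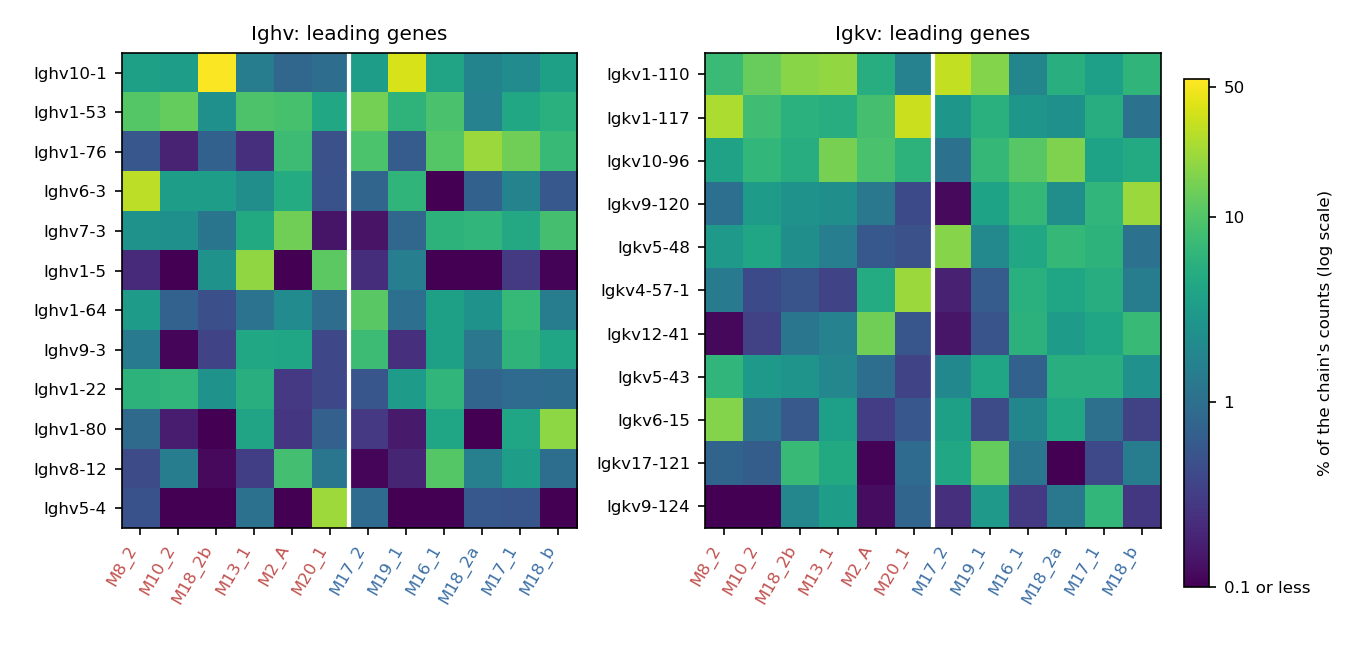
Share of the chain's counts (colour, log scale, values of 0.1% or less in the darkest colour) held by the leading Ighv and Igkv genes (rows) in each mouse (columns; red names APC Min/+, blue names WT, white line between the genotypes). Bright cells stand alone in most rows; Ighv10-1 is bright in M18_2b and M19_1 only, and Igkv1-110 holds 1.65% or more in all 12 mice.

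Most V counts lay in genes counted in every mouse, but at very different levels. A count was present in all 12 mice for 102 of the 214 genes, which together held 91.2% of V counts, in 1 to 11 mice for 101 genes and in no mouse for 11. Within the 168 V genes that passed the filter of 10 counts in 3 mice, the highest mouse held a median of 40.2% of a gene's CPM summed over the 12 mice, against 11.8% over all 20311 genes tested. Over 50% lay in a single mouse for 46 of the 168 V genes, and for 0.527% of all genes tested. Igkv3-5 was the most extreme of the named genes, with 96.3% in M17_1 (36.8 CPM, against 0.262 CPM or less elsewhere), followed by Igkv9-124 with 81.4% in M17_1 and Ighv5-4 with 76.0% in M20_1. Igkv12-98 had 75.6% in M17_1 and Ighv5-15 had 65.0% in M16_1. The highest mouse was M17_1 for 54 of the 168 genes, M2_A for 35 and M16_1 for 19, which are the 3 mice with the largest V shares.

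Diversity was measured as the effective number of V genes, the number of equally used genes that would give the same Shannon entropy. For Ighv it was 10.3, 22.4 and 31.3 (lowest, median and highest) in APC Min/+ mice and 16.3, 24.3 and 34.1 in WT mice. For Igkv it was 10.6, 27.3 and 32.0 in APC Min/+ mice and 13.9, 27.9 and 35.8 in WT mice. The groups overlapped, and the mean differences of -2.95 (Ighv) and -2.99 (Igkv) were smaller than the pooled SDs of 6.95 and 7.66. Without M18_2b and M19_1 they were -2.34 and -4.56. Without M10_2 and M13_1 they were -6.99, larger than the pooled SD of 5.96 among the remaining mice, and -4.72 (pooled SD 8.29). M18_2b had the lowest value for Ighv and the highest APC Min/+ value for Igkv, while M20_1 was low for both, at 16.6 and 10.6. When counts were thinned to the smallest chain total, 3747 Ighv and 4392 Igkv counts, the expected number of genes seen was 67.2 to 82.0 for Ighv and 62.0 to 81.6 for Igkv.

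Dominance was measured as the share of the most counted genes. The most counted Ighv gene held 24.9 ± 14.9% of Ighv counts in APC Min/+ mice and 19.5 ± 9.71% in WT mice (SD, n = 6), and the most counted Igkv gene 20.4 ± 7.56% and 17.14 ± 8.55%. The Ighv difference of 5.42 percentage points was -0.161 without M18_2b and 9.08 without M19_1. The 5 most counted genes held 37.7% to 66.5% of Ighv counts and 29.2% to 77.4% of Igkv counts. A single Ighv gene held over 50% of the chain in M18_2b, whereas 10 Igkv genes were needed in M17_1 to reach 50%. Position in the array also varied. The Igkv genes in plus orientation held 26.9% (M2_A) to 59.9% (M17_2) of Igkv counts. Ighv genes of the middle part of the array, with the genes ranked by position and divided into 3 equal parts, held 80.2% of Ighv counts in M18_2b and 71.5% in M19_1, against 18.4% to 50.5% in the other mice.

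**Figure D3:**
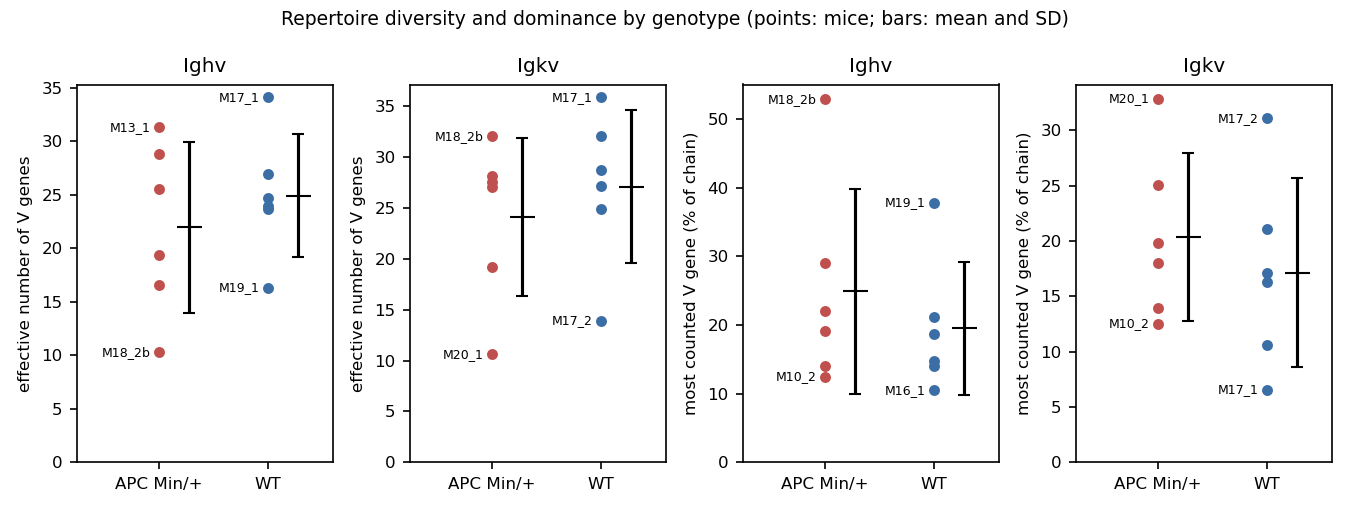
Effective number of V genes and share of the most counted V gene for Ighv and Igkv, by genotype. Points are mice, with the lowest and highest of each group named, and the bars beside them give the mean and SD of 6 mice; the groups overlap in all 4 panels, and M18_2b and M19_1 are the highest of their groups for the most counted Ighv gene.

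How alike any pair of mice was in V usage was measured with the Morisita-Horn index on gene shares, which is 0 for no shared gene and 1 for equal shares. Over the 66 pairs the index had a median of 0.305 for Ighv and 0.456 for Igkv. For Ighv the mean was 0.257 ± 0.147 within APC Min/+ (SD over 15 pairs), 0.435 ± 0.194 within WT (15 pairs) and 0.307 ± 0.192 between genotypes (36 pairs). For Igkv it was 0.504 ± 0.168, 0.473 ± 0.162 and 0.463 ± 0.189. Pairs share mice and are not independent, so no test was made. The mean between genotypes minus the mean within them was -0.0395 for Ighv and -0.0257 for Igkv. The SD over all pairs, 0.191 and 0.177, is the spread of single pairs and does not measure the error of these means. Without M18_2b and M19_1 these differences were -0.103 and -0.0499, and without M10_2 and M13_1 they were -0.0660 and -0.0499. The sign turned for Ighv without M17_1 (0.00376) and for Igkv without M8_2 (0.0015). M20_1 was the least like the others, with a mean index of 0.153 for Ighv and 0.299 for Igkv. At the level of V families likeness was higher, with medians of 0.911 for Ighv and 0.759 for Igkv.

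A single pair stood far apart from the rest, the APC Min/+ mouse M18_2b and the WT mouse M19_1. Their index was 0.939 for Ighv and 0.952 for Igkv, the highest of the 66 pairs in both chains. The next pairs reached 0.757 (M2_A with M16_1, Ighv) and 0.841 (M18_2b with M13_1, Igkv). For Ighv, the second nearest mouse to M18_2b was M8_2 at 0.185, and the second nearest to M19_1 was again M8_2, at 0.331. When the log2(CPM + 0.05) of the 168 tested V genes was taken as a deviation from each gene's mean over the 12 mice, the deviations of M18_2b and M19_1 correlated at r = 0.861, across genes that are not independent, and those of every other pair at 0.262 or below. Over the other genes tested the same pair correlated at 0.521, second to M10_2 with M13_1 at 0.809.

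The pair shared high genes in all 3 loci. Ighv10-1 (ENSMUSG00000095981.1) was at 80.9 CPM in M18_2b and 43.8 CPM in M19_1 and at no more than 15.6 CPM in the other 10 mice. Iglv1 (ENSMUSG00000076934.1) was at 156 and 95.7 CPM, against 70.3 CPM or less. Igkv4-74 was at 4.002 and 6.96 CPM against 1.59 CPM or less, and Igkv7-33 at 3.45 and 1.56 CPM against 0.897 CPM or less. Both genes were singled out after their values were seen, as were Igkv3-9 and Ighv1-49, the remaining 2 of the 6 genes at which both mice exceeded the other 10. Such genes are not particular to this pair: M2_A and M17_1, which had the largest V shares, exceeded the other 10 mice at 34 genes. The levels were not in a fixed proportion, with M19_1 at 54.2% of M18_2b for Ighv10-1, 61.3% for Iglv1 and 174% for Igkv4-74, and no pair of count tables was identical. T cell receptor V genes, with only 83 to 444 counts per mouse over 131 genes, gave an index of 0.932 for this pair, rank 14 of 66. The labels give these libraries as mice of different genotype, and whether they share RNA, a cage or a source was not tested.

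**Figure D4:**
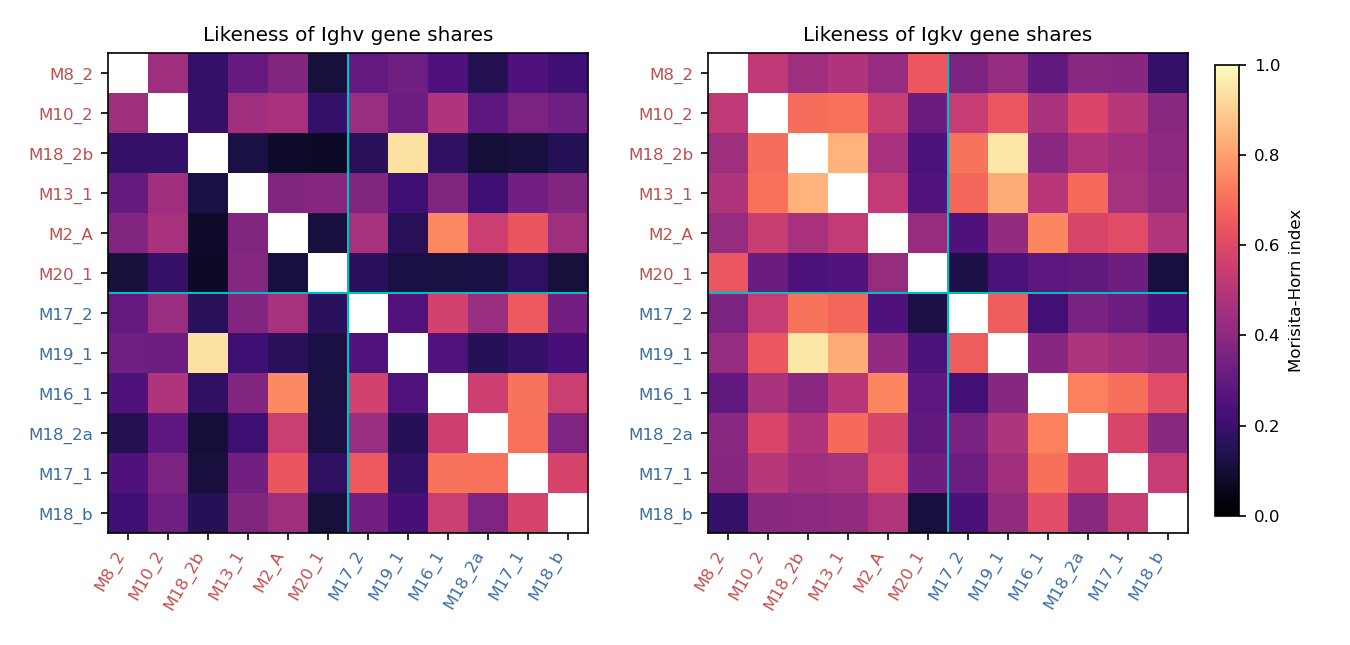
Morisita-Horn index (colour, 0 to 1) of every pair of mice for Ighv shares (left) and Igkv shares (right), with red names for APC Min/+ mice, blue names for WT mice, lines between the genotypes and a blank diagonal. The cells of M18_2b with M19_1 are the brightest in both panels, at 0.939 and 0.952.

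Levels of single V genes were then compared between genotypes with edgeR's quasi-likelihood test, fitted to the 20311 genes that passed the filter, with Benjamini-Hochberg adjustment over all of them. No V gene was called at FDR under 0.05 and at least 2-fold, among 168 tested, and no gene of any kind was (0% called). The lowest FDR was 0.908. With DESeq2, 3 V genes of 27 genes in all were called (Ighv5-15 at FDR = 0.00261, Igkv12-98 at 0.0251 and Igkv5-48 at 0.0275), and with edgeR's likelihood ratio test 2 of 15 (Ighv5-15 at 0.0117 and Igkv5-48 at 0.0339). At an unadjusted p under 0.05, 34 of the 168 V genes were lower in APC Min/+ mice, where 1.81% of all genes tested were, and 1 was higher, where 3.46% of all genes were. The 34 comprised 14 Ighv and 20 Igkv genes, with log2 fold changes from -6.26 to -1.62. The log2 fold change was below 0 for 122 of the 168 V genes (72.6%), against 51.6% of all genes tested. The median was -0.87 for V genes and -0.01 over all genes tested. These members share cells and clones, the 46 V genes that did not pass the filter are not in these counts, and 3 of the 168 passed it through WT mice only.

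The counts of V genes past the unadjusted threshold depended on single mice. Without M2_A, 75 of 161 V genes were lower and 1 higher at that threshold, where 617 and 1211 of all 20248 genes tested were. The median log2 fold change of the V genes was then -1.92. Without M17_1, 17 of 154 V genes were lower and 3 higher at that threshold, where 196 and 577 of all 20150 genes tested were. The V gene median was then -0.36. Of the 34 genes, 17 kept an unadjusted p under 0.05 without M17_1, 32 without M2_A, and 18 with the digit of the mouse name as covariate. In that last fit M2_A and M18_b, whose names lack this digit, formed a level of their own. Each of the 34 was highest in a WT mouse, in M17_1 for 19 of them. A WT maximum largely follows from choosing genes that were lower in APC Min/+ mice, so nothing is concluded from it. Among all 168 V genes tested, 110 were highest in a WT mouse, 54 of them in M17_1. Without M10_2 and M13_1, 24 of 163 V genes were lower at an unadjusted p under 0.05, where 211 of all 19978 genes tested were. Without M18_2b and M19_1, 40 of 164 were, against 462 of all 20193 genes tested. No V gene, in either direction, had CPM values that did not overlap between the genotypes, where 0.0739% of all genes tested lay wholly lower and 0.0443% wholly higher in APC Min/+ mice.

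Among the genes with the lowest p, Ighv5-15 (ENSMUSG00000094134.1) had a log2 fold change of -6.26 (SE 1.35, FDR = 0.908, edgeR). It had 1 count in each of 5 APC Min/+ mice and 3 counts in M13_1, which is at or under the 3-count floor, so the size of this fold is set largely by the fit. In WT mice it had 0, 2, 12, 79, 89 and 355 counts, the last in M16_1 (3.70 CPM), so that M17_2 and M19_1 were as low as the APC Min/+ mice. Igkv5-48 (ENSMUSG00000076563.1) was better counted, at 0.664, 2.33 and 4.99 CPM (lowest, median and highest) in APC Min/+ mice and 2.08, 24.4 and 62.1 CPM in WT mice. This gave a log2 fold change of -3.25 (SE 0.80, FDR = 0.908, edgeR), and 4 WT mice lay above every APC Min/+ mouse while M19_1 and M18_b lay within their range.

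Igkv12-98 (log2 fold change -5.80, SE 1.47) was at or under 0.172 CPM in APC Min/+ mice and reached 14.2 CPM in M17_1 and 3.55 CPM in M18_2a. Igkv3-5 (-5.99, SE 1.72) was high in M17_1 only, and its log2 fold change was -0.68 without that mouse. Ighv1-7 (-2.61, SE 0.75) was at 0.0255, 0.211 and 0.398 CPM in APC Min/+ mice and 0.312, 0.699 and 4.56 CPM in WT mice. These 3 genes likewise had FDR = 0.908 in edgeR's test. Igkv9-120 (-3.15), Ighv1-80 (-3.82), Igkv9-124 (-3.84), Igkv5-43 (-2.13) and Ighv1-64 (-2.11), named for their shares, were also past the unadjusted threshold and lower in edgeR's fit. Without M17_1 the log2 fold change of Igkv9-124 was -1.12, that of Igkv5-43 -1.05, that of Igkv12-98 -3.95 and that of Ighv1-7 -1.55.

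In the other direction Igkv2-112 was the only V gene past the unadjusted threshold, with a log2 fold change of 2.04 (SE 0.92, FDR = 0.908, edgeR). It was at 0, 0.154 and 0.928 CPM (lowest, median and highest) in APC Min/+ mice and at 0, 0.0473 and 0.143 CPM in WT mice, with the highest value in M13_1, and without that mouse its log2 fold change was 0.90. Ighv1-5 (2.69), Ighv1-55 (1.67), Igkv4-68 (2.20) and Ighv5-12 (1.27) had the next lowest unadjusted p among the genes with higher fitted levels and did not pass 0.05.

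**Figure D5:**
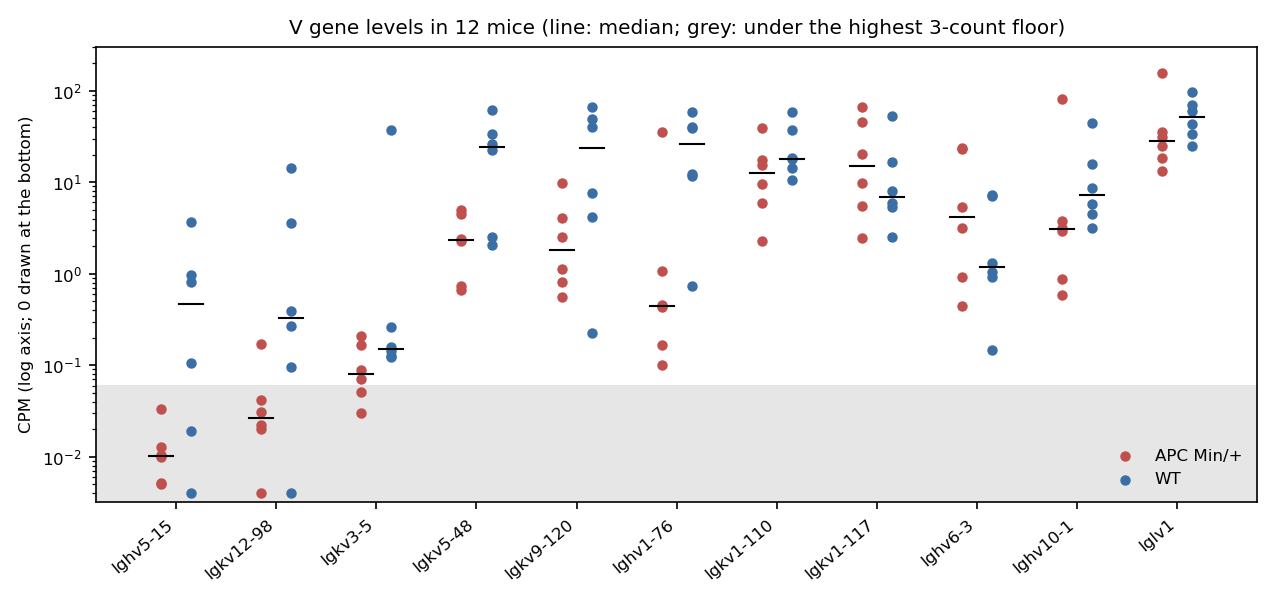
CPM (log axis) of 11 V genes in 6 APC Min/+ mice (red) and 6 WT mice (blue), with the median of each group as a line, values of 0 at the bottom edge and grey for levels under the highest 3-count floor, 0.0596 CPM. Igkv5-48 and Igkv9-120 show 3 or more WT mice above all APC Min/+ mice, Igkv3-5 a single high WT mouse, and Ighv10-1 and Iglv1 a single high APC Min/+ mouse, M18_2b.

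Several V genes with large shares were high in mice of both genotypes. Ighv1-76 was at 0.0994, 0.445 and 35.7 CPM (lowest, median and highest) in APC Min/+ mice, where M2_A was high and the other 5 at or below 1.07 CPM, and at 0.730, 25.9 and 58.8 CPM in WT mice, where M19_1 was low. Its log2 fold change was -2.11 (SE 1.35, FDR = 0.908, edgeR) and -5.90 without M2_A. Ighv6-3 was at 0.447, 4.22 and 23.7 CPM in APC Min/+ mice and 0.146, 1.18 and 7.23 CPM in WT mice. Its fitted difference was 1.67 on the log2 scale (SE 1.01). Igkv1-110 (-0.80, SE 0.59), Iglv1 (-0.23, SE 0.55) and Ighv10-1 (0.17, SE 1.10) had FDR values of 0.909, 0.943 and 0.981. For Ighv10-1 the sign rested on M18_2b, since the log2 fold change was -2.58 without that mouse and -1.73 without M18_2b and M19_1.

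V genes known from the innate-like antibodies of B-1 cells were counted at unequal levels. Ighv11-2 and Igkv14-126, as well as Ighv12-3 and Igkv4-91, are the heavy and light V genes of antibodies to phosphatidylcholine, and Ighv7-1 encodes the T15 heavy chain of antibodies to phosphorylcholine. Ighv11-2 held no more than 0.144% of Ighv counts in any mouse and Ighv12-3, which did not pass the filter, no more than 0.105%. Igkv14-126 reached 1.54% of Igkv counts in M8_2, and Igkv4-91 5.76% in M18_b. Ighv7-1 held up to 3.67% of Ighv counts, with a level of 4.86 CPM in M18_2b, 4.86 CPM in M17_2 and 4.91 CPM in M18_2a, and no count in M20_1. The log2 fold changes of the 4 tested genes lay between -1.05 and 0.47, with FDR of 0.91 or more in edgeR's test.

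Genes that act around V genes were listed for comparison. None of the 10 plasma cell genes passed an unadjusted p of 0.05, 8 of them had lower fitted levels in APC Min/+ mice, and their median log2 fold change was -0.41. Jchain, which joins IgA into dimers, was at 48.7 to 772 CPM. Of the 8 tested constant region genes 7 had lower fitted levels, with a median of -0.82 and none past the threshold. The 10 B cell genes all had higher fitted levels, with a median of 1.21 and none past the threshold, and their summed level was 2.38, 6.53 and 69.9 CPM (lowest, median and highest) in APC Min/+ mice and 2.97, 6.38 and 14.8 CPM in WT mice, the highest in M13_1. The other 5 APC Min/+ mice were at 2.38 to 8.83 CPM, within or below the range of the WT mice. Of the 6 germinal centre and follicle genes none passed the threshold, and the median was 0.22. Rag1, which cuts DNA in V(D)J recombination, was at 0 in 7 mice and never above 0.0245 CPM, and Dntt, which adds bases at the joins, was at 0 in 10 mice, while the DNA repair genes of the same list were counted in every mouse. None of the 10 tested genes of that list passed the threshold. Of 9 genes of IgA transport and plasma cell homing, Ccl28, a chemokine that attracts IgA plasma cells, was higher at an unadjusted p under 0.05 (log2 fold change 0.77, SE 0.28, FDR = 0.908, edgeR), and 8 did not pass. Of the 6 T cell genes, which all had lower fitted levels, Cd3g passed an unadjusted p of 0.05 (log2 fold change -0.53, FDR = 0.908, edgeR), and their summed level was 7.40 to 13.3 CPM in APC Min/+ mice and 9.77 to 16.4 CPM in WT mice. Of the 6 epithelial genes none passed the threshold (median -0.09), of the 4 smooth muscle genes Des was higher at an unadjusted p under 0.05 (log2 fold change 0.52, FDR = 0.908, edgeR), and the 3 posterior Hox genes were all higher at an unadjusted p under 0.05, with their highest levels in M10_2 and M13_1. The part that cell composition played in V gene levels was not tested.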

How the data were processed

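RNA-Seq counts of 12 mice were used, grouped by the genotype in the labels. The authors deposited 1 table of raw counts per mouse, made from paired-end reads of 100 bases aligned to GRCm38 with STAR (version 2.3.0 per the labels) and counted on genes with featureCounts, beside a deposited gene length. Among genes with 1 to 20 counts, 75.7% to 81.2% of the values were even (44.1% to 72.3% among V genes), as when both mates of a pair are counted. How far this holds for V genes was not tested. Counts are not independent molecules, and floors cover counting error only. Symbols came from GENCODE M21, with 37607 of 38924 IDs matched, and 134 further V symbols of that annotation, 122 of them pseudogenes, are not used here. No table duplicated another.

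Genotypes were compared with edgeR 4.0.16 (R 4.3.3) after TMM scaling. The quasi-likelihood test covered the 20311 genes that reached 10 counts in 3 or more mice. The fit was first tested on simulated data with the same spread setting for every gene. That check does not show how the fit behaves on V genes, which are more uneven between mice. CPM values use TMM-scaled totals. Shares, effective numbers and indices were computed from raw counts with Python 3.11.15, numpy 2.4.6 and pandas 2.3.3, and are descriptions without tests. The members, gene lists and named genes were chosen with earlier results of these data known. Named were the 10 Ighv and 10 Igkv genes with the largest mean share and every Iglv gene, genes that led their chain or held 20% of it in a mouse, the 5 genes with the lowest p in each direction, genes without overlap, and 5 B-1 genes. Alternatives were DESeq2 1.42.0, edgeR's likelihood ratio test, no filter, RLE scaling, the digit in the mouse name as a covariate, functional V genes only, counts per kb, other indices, and leaving out mice. The labels name separate mice, and the tests took each mouse as independent and set differences against the spread between mice. Cages shared within a genotype were not modelled.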

Additional observations from a re-analysis of the deposited data

Results flagged for a closer look

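Each measure was taken within each genotype, a group of 6 mice. A value was singled out when the gap between the highest or lowest mouse and its nearest neighbour exceeded Dixon's critical part of the group's range. High and low below are therefore relative to the mouse's own genotype, and mice of the other genotype can lie beyond a singled-out value. This held for 44 of 126 groups (34.9%). A chance rate of about 1 in 20 applies to normally distributed values, which was not checked for these levels and shares. The groups share mice and genes, and some genes were named because they led their chain or held 20% of it in a mouse. No excess over chance can therefore be read from this share. The values are given by mouse, and no explanation was tested.

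M2_A was high for the V share of all counts (0.127%) and the Igkv12 family (15.5% of Igkv counts). Its levels were also apart for Ighv1-53 (40.6 CPM), Ighv1-64 (9.74 CPM), Ighv1-76 (35.7 CPM), Ighv7-3 (65.3 CPM), Ighv8-12 (39.2 CPM) and Ighv9-3 (19.7 CPM). Among its kappa genes this was so for Igkv10-96 (71.1 CPM), Igkv12-41 (109 CPM) and Igkv4-91 (12.4 CPM).

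M18_2b was high for the Ighv10 family (57.3%), Ighv10-1 (80.9 CPM), Igkv17-121 (6.97 CPM), Iglv1 (156 CPM) and Iglv2 (9.66 CPM). M19_1 was high for Iglv (31.2% of V counts), the Ighv10 family (40.9%) and Ighv10-1 (43.8 CPM), and low for the Ighv1 family (32.6%). The same family and gene thus stood out in both of these mice, which carry different genotype labels.

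M17_1 was high for Ighv1-7 (4.56 CPM), Ighv11-2 (0.258 CPM), Igkv1-117 (53.4 CPM), Igkv12-98 (14.2 CPM), Igkv3-5 (36.8 CPM), Igkv5-43 (54.3 CPM) and Igkv9-124 (69.1 CPM). M18_2a was high for the families Ighv3 (15.5%) and Igkv6 (14.1%) and for Ighv12-3 (0.196 CPM), Igkv14-126 (1.01 CPM) and Igkv4-68 (5.44 CPM). M16_1 was high for Ighv1-22 (24.6 CPM), Ighv5-15 (3.70 CPM) and Ighv8-12 (40.8 CPM), and M18_b for Igkv4-91 (13.3 CPM).

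M8_2 was high for the Ighv6 family (32.2%), Ighv1-55 (6.98 CPM) and Igkv6-15 (13.8 CPM). M10_2 was high for the Ighv3 family (10.1%) and Igkv12-98 (0.172 CPM), M13_1 for Ighv5-15 (0.0331 CPM, from 3 counts) and Igkv2-112 (0.928 CPM), and M20_1 for Ighv5-4 (19.9 CPM).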

How the results depend on the processing

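Of 1303 recomputed values, 1259 were scored as kept. Tested fold changes had to keep their direction and side of the threshold, and numbers of genes had to stay within a set ratio. Other values had to move by no more than the SD between mice or pairs, within which a sign can change. Part of this was fixed beforehand. Leaving out M2_A was scored more than once, and the index of M18_2b with M19_1 cannot change when other mice are left out. Genes with a high FDR also seldom cross the threshold. The difference in the Ighv10 share, 1.93 percentage points, was -0.972 without M18_2b and M19_1 and -6.92 to 7.87 when single mice were left out, and that in the Ighv1 share was then -8.24 to 0.63. No paired analysis was possible because replicate numbers follow accession order only. With counts per kb the difference in V share was -0.187 percentage points (pooled SD 0.291). Those shares are on another scale, since each gene's counts were divided by its length. The main difference was -0.0283 (pooled SD 0.0457). V genes called numbered 3 with DESeq2 and 2 with the likelihood ratio test. V genes with an unadjusted p under 0.05 numbered 35, among 1071 genes in all, and 76 without M2_A, among 1828. They numbered 20 to 76 when each mouse was left out.

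The signs of log2 fold changes that were not called reversed as follows, and the cause was not tested. With the digit of the mouse name as covariate, Ighv10-1 was at -0.77, Ighv7-3 at -1.95, Igkv12-41 at -3.45, Igkv14-126 at -0.10 and Igkv4-91 at 0.34. Without M10_2 and M13_1, Ighv8-12 was at 0.035, Igkv4-91 at 0.27 and Iglv1 at 0.14. Without M2_A, Ighv7-3 was at -2.80 and Igkv12-41 at -4.78. Without M18_2b and M19_1, a choice made after seeing the data, Ighv10-1 was at -1.73.

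Leaving out single mice, the ranges were -1.24 to 0.48 for Ighv1-22, -1.27 to 0.075 for Ighv1-53, -2.58 to 1.02 for Ighv10-1, -1.53 to 2.78 for Ighv5-4, -2.80 to 0.41 for Ighv7-3 and -4.01 to 0.91 for Ighv8-12. They were -4.78 to 0.54 for Igkv12-41, -0.30 to 1.42 for Igkv14-126, -1.44 to 0.18 for Igkv4-57-1, -1.99 to 1.73 for Igkv4-91 and -1.14 to 0.0091 for Iglv1. Depth limits genes at or under 3 counts, such as Ighv5-15 in APC Min/+ mice.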
